A study of Capra hircus with 11 samples.

Results

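The cycling cells that remained after 8 days of chemical induction of goat ear fibroblasts are described here. They were chosen by their UMIs (unique molecular identifiers, each standing for 1 captured mRNA molecule) of 4 genes of dividing cells, MKI67, TOP2A, CDK1 and CENPF: a barcode, the droplet tag that stands for a cell, was called cycling when these genes summed to at least 4 UMIs in it. Of 10152 barcodes of BFRTV8d, 456 were cycling, and there were 41854 barcodes in the whole series. They are set against the 8006 barcodes of the same table with 0 such UMIs, called negative, and the 1690 barcodes with 1 to 3 UMIs form a middle class. The rule used the measured values of the 4 genes, so the levels of these genes, and the shares of barcodes that pass the rule, are given as a description and support nothing else.

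The series profiled goat (Capra hircus) cells with 10x Genomics 3′ single-cell RNA sequencing, version 2 chemistry. BFRTV0d cells were ear fibroblasts before induction, BFRTV4d and BFRTV8d cells were ear fibroblasts kept for 4 and 8 days in a medium named BFRTV on Matrigel-coated dishes, CiMECs were cells of day 8 that were then passaged in a medium for goat mammary epithelium, and GMECs were mammary epithelial cells taken from goats. No genetic change was made in any group, and the components of the medium, the donor animals and any sorting could not be found in the sources used here. Each group is 1 pooled table: the labels give BFRTV8d 2 samples and the series' design text gives 3, and no barcode can be assigned to a sample. For that reason no replicate error and no p-value could be computed, all intervals cover counting error only, and a difference between days cannot be told apart from a difference between libraries.

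A dividing cell copies its DNA in S phase, with replication enzymes such as PCNA, the MCM helicase and ribonucleotide reductase, and then builds a spindle and separates its chromosomes in G2 phase and mitosis, with cyclin B, the Aurora kinases and the ubiquitin ligase APC/C. Many cells stop dividing as they differentiate, and mammary epithelium holds basal cells with the keratins KRT5 and KRT14 and luminal cells with KRT7, KRT8, KRT18 and KRT19. Interferon-stimulated genes are antiviral and signalling genes that many cell types switch on together in response to interferon.

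Each of the 5 tables held between 5188 and 10670 barcodes and between 97203521 and 117500853 UMIs. The BFRTV8d table had 103337253 UMIs and a median of 9089 UMIs per barcode. Its cycling barcodes were deeper, with a median of 11819 UMIs and a range of 3425 to 55010, against a median of 8864 and a range of 2741 to 41098 in negative barcodes. Of the cycling barcodes 69 (15.1%) had more than 2 times the table's median, against 361 negative barcodes (4.51%). The doublet caller Scrublet marked 0 of 10152 barcodes and therefore did not work on this table, so that doublets were not removed. Of the cycling barcodes 20 carried a barcode sequence that also stood in another table. All 10152 barcodes of BFRTV8d had at least 2 UMIs of a set of 10 epithelial markers, against 20.1% of BFRTV0d barcodes. After every barcode was thinned to 3000 UMIs, which left out 8 barcodes of BFRTV8d and 0 of BFRTV0d, the shares were 99.0% and 8.99%. What free RNA adds to these shares was not measured, so they do not show that every barcode held an epithelial cell. Of 16 genes of milk secretion 7 were listed at day 8, the casein CSN3 among them, with 54 UMIs in cycling barcodes. The caseins CSN1S1, CSN1S2 and CSN2, LALBA and the lactoglobulin genes were not listed.

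Cycling barcodes made up a smaller share of the day 8 table than of the tables of days 0 and 4. The share was 14.4% at day 0 (95% exact Clopper-Pearson interval 13.8 to 15.1), 16.7% at day 4 (16.0 to 17.4) and 4.49% at day 8 (4.10 to 4.91). It was 5.94% in CiMECs (5.31 to 6.61) and 25.2% in GMECs (24.1 to 26.4). These last tables were sequenced deeper, with medians of 17232 and 19424 UMIs, which raises the chance of reaching 4 UMIs. With every barcode thinned to 3000 UMIs, 3.34% of barcodes passed the rule at day 0, 6.42% at day 4 and 1.69% at day 8 (1.44 to 1.96), and 0.184% passed in CiMECs and 3.68% in GMECs. Thinning kept 10158 of 10203 barcodes of BFRTV4d, 4351 of 5188 of CiMECs and 4752 of 5641 of GMECs. Over all UMIs of a table, the 4 genes together stood at 182 CPM (UMIs of a gene per 1000000 UMIs) at day 0, 253 CPM at day 4, 84.4 CPM at day 8, 38.4 CPM in CiMECs and 182 CPM in GMECs. The order of BFRTV8d and CiMECs differed between the shares with all UMIs and after thinning, so no order of these 2 tables is read from the shares. No cell type that should lack the 4 genes was identified in the tables, so the share of barcodes that free RNA gives was not measured.

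**Figure D1:**
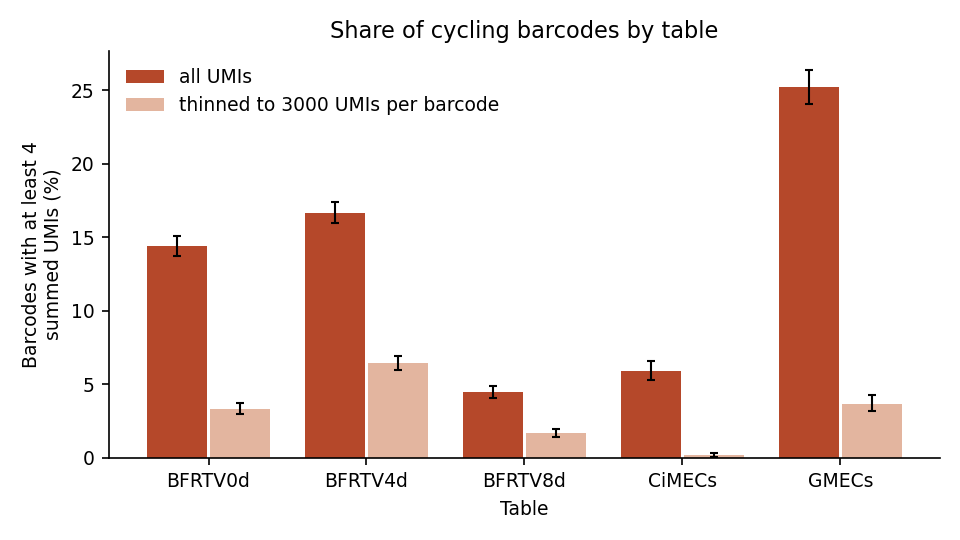
Share of barcodes with at least 4 summed UMIs of MKI67, TOP2A, CDK1 and CENPF (y axis, %) in each table (x axis), with all UMIs (dark bars) and after thinning every barcode to 3000 UMIs (light bars); error bars are exact 95% intervals of counting error. The dark bar of day 8 stands at 4.49% and its light bar at 1.69%, each below the bar of the same kind at days 0 and 4.

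The 456 cycling barcodes differed widely in how many UMIs of the 4 genes they held. Their summed UMIs had a median of 11 and reached 87, and 244 barcodes had 10 or more. At the edge of the rule 62 barcodes had exactly 4 UMIs and 77 had 3, with median depths of 10071 and 9033 UMIs. CENPF, a kinetochore protein, gave 51.7% of the rule UMIs and had a UMI in 98.5% of cycling barcodes. TOP2A, the topoisomerase that untangles sister chromatids, gave 29.6%. CDK1, the kinase that starts mitosis, gave 11.1%, and the proliferation antigen MKI67 gave 7.66% and had a UMI in 57.5% of cycling barcodes. All 4 genes were seen together in 181 barcodes and a single one in 63. Without CENPF 164 barcodes would have left the class, against 45 without TOP2A, 22 without MKI67 and 17 without CDK1.

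Summed over barcodes and scaled to CPM, 8474 genes had at least 10 CPM in cycling or negative barcodes of BFRTV8d and were compared. In cycling barcodes 421 of them stood 2-fold or more above negative barcodes, 4.97% of the genes compared, and 63 stood 2-fold or more below, 0.743%. The median log2 ratio over all 8474 genes was 0.15, and it became 0.01 with TMM scaling factors, so a list median near 0.15 is that of a typical gene here. Of the 421 higher genes 59 belonged to the lists for S phase, for G2 and mitosis, or for DNA repair, 5 to other lists and 357 to no list, and of the 63 lower genes 9 belonged to the fibroblast list.

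Genes of G2 phase and mitosis, none of them among the 4 rule genes, marked the cycling barcodes most strongly. All 34 compared genes of the 35 on the list were at least 2-fold higher, beside 4.97% of all genes, and the list median was 5.51 (log2). Members under 10 CPM in negative barcodes were compared only through their level in cycling barcodes, so the count of 34 was partly fixed by the filter. With no CPM minimum the list median was 5.48. UBE2C, the ubiquitin-conjugating enzyme of the APC/C, stood at 664 CPM in cycling barcodes and 3.90 CPM in negative barcodes, a ratio of 170.3 (95% interval 152 to 192). It had a UMI in 78.9% of cycling and 3.57% of negative barcodes. ASPM, a spindle pole protein, stood at 50.8 and 0.305 CPM in cycling and negative barcodes. The kinesins KIF2C and KIF11 stood at 73.0 and 63.2 CPM in cycling barcodes, against 0.533 and 0.610 CPM in negative barcodes. These genes thus stood at very low levels in negative barcodes, which had been chosen for 0 UMIs of the rule genes. The mitotic kinases AURKB and NEK2 were 109.8-fold and 95.5-fold higher, the spindle protein DLGAP5 125-fold and the chromosomal passenger protein BIRC5 71.8-fold. CENPA, the histone H3 variant of centromeres, was 84.8-fold higher, and CDKN3, a phosphatase that acts on cyclin-dependent kinases, 75.4-fold. The lowest ratios of the list were those of SMC4, a condensin subunit at 186 CPM in cycling barcodes and 27.3 CPM in negative barcodes, and of PTTG1, the securin, at 617 and 74.3 CPM.

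S phase genes were higher as well, but less uniformly. Of 32 genes on the list 20 reached 10 CPM in a class, 13 of these stood 2-fold or more above and 0 as far below. The list median was 1.99, also with no CPM minimum. Members low in negative barcodes, such as RRM2, were compared only through their level in cycling barcodes, so the count of 13 was partly fixed by the filter. RRM2, the small subunit of ribonucleotide reductase, stood at 34.6 CPM in cycling barcodes and 0.661 CPM in negative barcodes, a ratio of 52.4 (38.4 to 72.5). The sliding clamp PCNA stood at 107 CPM in cycling barcodes and 26.9 CPM in negative barcodes. Thymidylate synthase, TYMS, stood at 144 and 36.2 CPM. CLSPN, an adaptor of the replication checkpoint, was 12.4-fold higher, UHRF1, which carries DNA methylation through replication, 9.73-fold, and CHAF1A, a subunit of a histone chaperone, 8.89-fold. UNG, the uracil-DNA glycosylase, went the other way, at 52.0 CPM in cycling barcodes and 61.0 CPM in negative barcodes. The list of DNA repair genes had a median of 1.53, with 12 of 16 compared genes at least 2-fold higher. The same limit of the filter holds for this count. FANCI and FANCD2, which form the central complex of the Fanconi anaemia pathway, were 41.4-fold and 22.5-fold higher.

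**Figure D2:**
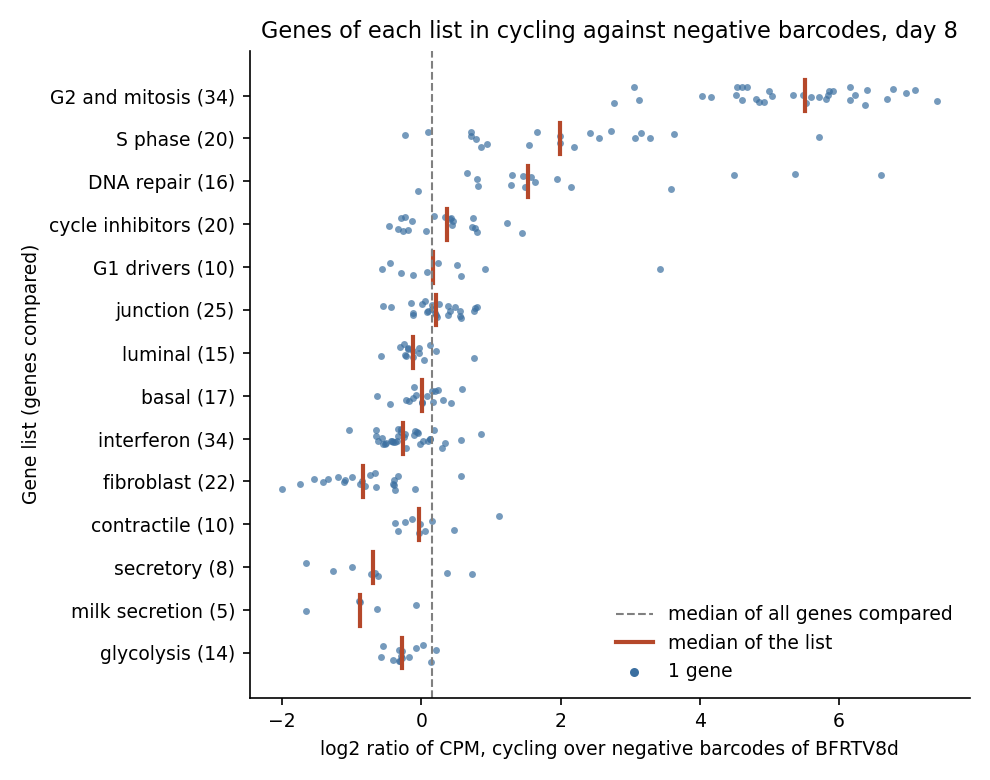
Log2 ratio of CPM in cycling over negative barcodes of BFRTV8d (x axis) for the compared genes of 14 lists (y axis, number of genes in parentheses); each point is 1 gene, red bars are list medians and the dashed line is the median of all 8474 genes, 0.15. The G2 and mitosis list stands apart at a median of 5.51, the S phase list follows at 1.99, and the fibroblast list stands lowest but for milk secretion, at -0.83.

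The balance between the lists for S phase and for G2 and mitosis differed between days. In cycling barcodes the S phase list summed to 1939.5 CPM at day 0, 1465 CPM at day 4 and 891 CPM at day 8. The list for G2 and mitosis summed to 4087 CPM at day 0, 3593 CPM at day 4 and 5045 CPM at day 8. The ratio of S phase to G2 and mitosis UMIs was therefore 0.475 at day 0 (95% interval 0.469 to 0.480), 0.408 at day 4 (0.403 to 0.413) and 0.177 at day 8 (0.171 to 0.182). Thinned to 3000 UMIs per barcode it was 0.479, 0.410 and 0.187. Counted by barcode, 25.4% of cycling barcodes at day 0, 15.2% at day 4 and 4.82% at day 8 (3.05 to 7.21) had more UMIs of the S phase list than of the other list.

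Of single genes of replication some showed this order and PCNA did not, at 129.9 CPM in cycling barcodes of day 0, 137 CPM at day 4 and 107 CPM at day 8. The helicase subunits MCM2 and MCM5 stood at 72.1 and 55.6 CPM in cycling barcodes of day 0, at 43.2 and 40.1 CPM at day 4 and at 10.5 CPM each at day 8. RRM2 stood at 176 CPM in cycling barcodes of day 0, 88.5 CPM at day 4 and 34.6 CPM at day 8. UBE2C was highest at day 8, with 401 CPM in cycling barcodes of day 0, 338 CPM at day 4 and 664 CPM at day 8. In negative barcodes the S phase list summed to 1200.3 CPM at day 0, 309 CPM at day 4 and 339 CPM at day 8, so that its level in the fibroblasts was high outside the class too. The rule was the same in each table, and its genes are themselves best known from G2 phase and mitosis. The class it drew differed in makeup: CENPF gave 39.0% of the rule UMIs at day 0, 46.7% at day 4 and 51.7% at day 8. MKI67 gave 22.8%, 15.0% and 7.66%, and a single rule gene was seen in 2.21%, 2.88% and 13.8% of cycling barcodes. The part of this makeup in the balance was not tested.

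**Figure D3:**
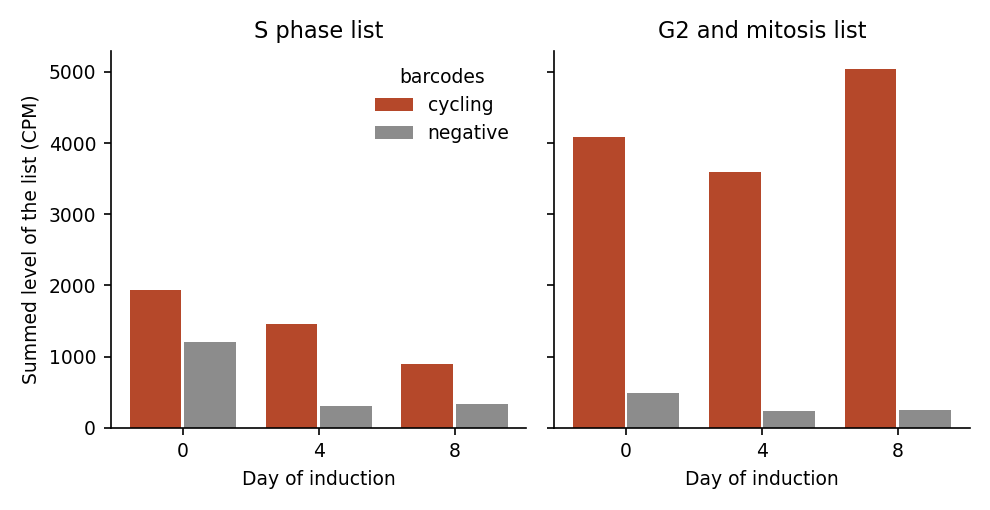
Summed level (y axis, CPM) of the S phase list (left) and of the list for G2 and mitosis (right) in cycling (red) and negative (grey) barcodes at days 0, 4 and 8 of induction (x axis). In cycling barcodes the S phase bar is lowest at day 8, at 891 CPM, and the bar for G2 and mitosis is highest there, at 5045 CPM.

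Most drivers of G1 phase and brakes on the cycle were under 2-fold apart, with E2F2, CDKN2D and CDKN2C as the exceptions. All D-type cyclins, which push cells out of G1, were lower in cycling barcodes. CCND1 stood at 195 CPM in cycling barcodes and 267 CPM in negative barcodes, CCND2 at 209 and 255 CPM, and CCND3 at 58.4 and 86.1 CPM. Their partner CDK4 stood at 99.2 CPM in cycling and 67.0 CPM in negative barcodes, and CDK2, which acts with cyclins E and A, at 18.8 and 9.97 CPM. The transcription factor E2F2 was 10.7-fold higher (7.54 to 15.2) and was the single gene of 10 compared on the list that was at least 2-fold higher, with a list median of 0.16. Its level in cycling barcodes, 10.5 CPM, was just over the minimum of 10 CPM, which it did not reach in negative barcodes. MYC, a growth-promoting transcription factor, stood at 259 CPM in cycling barcodes and 280.5 CPM in negative barcodes.

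Among the brakes, the inhibitors of CDK4 and CDK6 CDKN2D and CDKN2C were higher in cycling barcodes. CDKN2D stood at 94.0 CPM in cycling barcodes and 34.6 CPM in negative barcodes, 2.72-fold higher (2.48 to 2.98), and CDKN2C at 39.1 and 16.7 CPM, 2.34-fold higher (2.02 to 2.70). They were the 2 of 20 compared genes that were at least 2-fold higher, beside 4.97% of all genes, and 0 were as far below, with a list median of 0.38. CDKN1A, the p21 inhibitor that p53 induces, was nearly level, at 314 CPM in cycling and 299.9 CPM in negative barcodes, a ratio of 1.05 (1.00 to 1.10). The retinoblastoma gene RB1 stood at 39.4 and 22.7 CPM, and SESN2, a stress-responsive gene, at 34.3 and 20.1 CPM. In cycling barcodes CDKN2D was 18.1 CPM at day 0, 30.1 CPM at day 4 and 94.0 CPM at day 8. CDKN1C, the p57 inhibitor, stood at 11.3 CPM in cycling barcodes and 28.2 CPM in negative barcodes of day 0, at 6.03 and 16.4 CPM at day 4 and at 13.3 and 10.5 CPM at day 8.

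Epithelial junction genes were at a typical level or slightly above in cycling barcodes. The list of 32 genes had 25 compared, 0 of them 2-fold apart in either direction, and a median of 0.20 beside 0.15 over all genes. E-cadherin, CDH1, stood at 82.6 CPM in cycling barcodes and 59.1 CPM in negative barcodes, a ratio of 1.40 (1.27 to 1.54). EPCAM, an epithelial adhesion molecule, stood at 224 and 153 CPM. Among the claudins, the strand proteins of tight junctions, CLDN3 stood at 35.8 CPM in cycling barcodes and 20.5 CPM in negative barcodes, CLDN4 at 376 and 314 CPM, and CLDN7 at 41.7 and 36.3 CPM. The splicing factors ESRP1 and ESRP2, which keep epithelial mRNA isoforms, were 1.69-fold and 1.70-fold higher, and F11R, a junctional adhesion molecule, 1.49-fold. The p53 target PERP, a desmosomal protein, was lower, at 771 and 1046 CPM.

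The basal keratins KRT5 and KRT14 stood at lower levels in cycling barcodes, whereas the luminal keratins went both ways. KRT14 stood at 3069.8 CPM in cycling barcodes and 4799 CPM in negative barcodes, 1.56-fold lower, and KRT5 at 2018 and 2750 CPM, 1.36-fold lower. In single barcodes KRT14 had a median of 2494 CPM in cycling barcodes and 4068 CPM in negative barcodes, with quartiles of 1587 to 3943 and 2349 to 6260 CPM, so the distributions overlapped broadly. TP63, the transcription factor that maintains basal cells, stood at 120.1 and 136 CPM. The basal list as a whole had 0 of 17 compared genes 2-fold apart and a median of 0.01, which became -0.13 with TMM scaling. Of its other members P-cadherin, CDH3, stood at 86.6 CPM in cycling and 64.4 CPM in negative barcodes, and PLEC, which ties keratin to hemidesmosomes, at 54.7 and 36.7 CPM.

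On the luminal list 0 of 15 compared genes were 2-fold apart, and the median was -0.13. KRT18 was its highest member, at 175 CPM in cycling and 104 CPM in negative barcodes, a ratio of 1.69 (1.58 to 1.80), while its filament partner KRT8 was level at 343 and 335 CPM. KRT19 stood at 3032 and 3291 CPM and KRT7 at 849 and 996 CPM. ELF5, which directs alveolar differentiation in the mouse mammary gland, was the lowest member, at 26.7 CPM in cycling and 39.9 CPM in negative barcodes, 1.50-fold lower. EHF, another epithelial ETS factor, stood at 425 and 494 CPM, and GATA3, a luminal transcription factor, at 189.9 and 225 CPM.

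The same genes were arranged differently at earlier days. At day 4 KRT14 stood at 1908 CPM in cycling barcodes and 1337 CPM in negative barcodes, KRT5 at 3062 and 1733 CPM and KRT19 at 2071 and 927 CPM, all of them higher in cycling barcodes. The medians of the junction, luminal and basal lists were 1.08, 0.91 and 0.69 at day 4, beside 0.35 over all genes, with 9 of 17, 4 of 12 and 4 of 17 genes at least 2-fold higher. Over all genes 11.6% stood 2-fold or more above and 4.51% as far below at day 4. At day 0 the medians were 0.95, 0.81 and 0.59, with 8 of 16, 4 of 11 and 2 of 17 genes at least 2-fold higher, beside 3.42% of all genes above and 0.37% below by that fold. With negative barcodes weighted to the depth of cycling ones, KRT14 at day 0 had a log2 ratio of -0.85 in place of 0.47 and KRT19 -0.12 in place of 1.20, while at day 8 KRT14 kept -0.68 in place of -0.64. The direction of KRT14 and KRT19 at day 0 thus differed with and without the weighting by depth, and the cause was not tested. The differences between days were not tested.

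Of the cycling barcodes, 99.1% met the epithelial set and 49.8% the mesenchymal set at day 4, against 85.4% and 73.2% of negative barcodes. Thinned, 1613 and 404 of 1698 cycling barcodes met these sets, against 3388 and 3957 of 6067 negative barcodes, whose median depths before thinning were 12378 and 9076 UMIs. At day 8 the epithelial set was met by 456 of 456 cycling barcodes and 8006 of 8006 negative barcodes, and thinned by 100% and 98.9%.

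**Figure D4:**
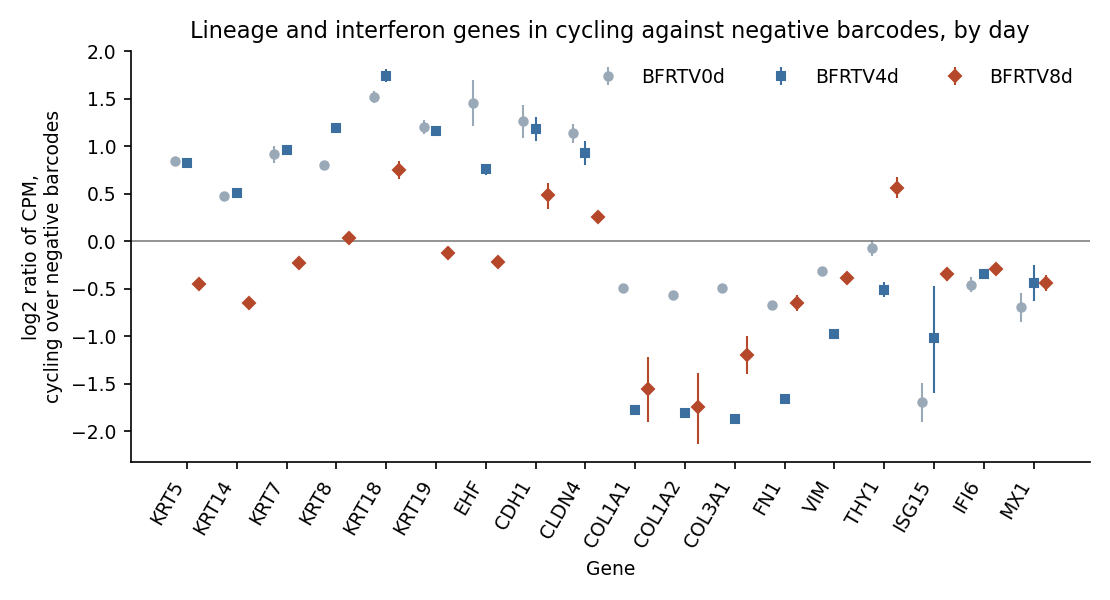
Log2 ratio of CPM in cycling over negative barcodes (y axis) for 18 lineage and interferon genes (x axis) at days 0, 4 and 8; vertical lines are 95% intervals of counting error and points above 0 are higher in cycling barcodes. KRT5, KRT14, KRT7, KRT19 and EHF lie above 0 at days 0 and 4 and below 0 at day 8, and the collagens lie below 0 at every day; with depth weighting, which is not drawn, KRT5, KRT14, KRT7 and KRT19 lie below 0 at day 0 (-0.46, -0.85, -0.35 and -0.12).

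Fibroblast genes stood at lower levels in cycling barcodes of day 8, and most UMIs of collagen and stromal markers sat in few barcodes of each class. Of 32 genes on the list 22 were compared, 9 stood 2-fold or more below, beside 0.743% of all genes, and 0 as far above, with a median of -0.83. Members under 10 CPM in cycling barcodes were compared only through their level in negative barcodes, so the count of 9 was partly fixed by the filter. With no CPM minimum the median was -0.77. COL1A1 and COL1A2, the chains of type I collagen, stood at 12.7 and 10.8 CPM in cycling barcodes, against 37.3 and 36.4 CPM in negative barcodes. COL3A1, type III collagen, stood at 37.2 and 85.0 CPM, and the proteoglycan LUM at 9.30 and 37.1 CPM, 4.00-fold lower. PRRX1, a transcription factor of mesenchyme, stood at 37.0 CPM in cycling and 98.8 CPM in negative barcodes. VIM, the mesenchymal intermediate filament, stood at 919 and 1204 CPM, and fibronectin, FN1, at 223 and 349 CPM.

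A set of 8 collagen and stromal markers was met, with at least 2 UMIs, by 26 cycling barcodes (5.70%, 3.76 to 8.24) and 582 negative barcodes (7.27%, 6.71 to 7.86). Thinned, the shares were 2.19% (1.06 to 4.00) and 4.78% (4.32 to 5.27), and in GMECs, where 1 of the 8 genes was listed, 0 of 4752 thinned barcodes met the set, which by a limit of 3 counts allows a share of up to 0.0631%. The 26 cycling barcodes were deep, with a median of 17655 UMIs, against 12242.5 UMIs in the 582 negative ones. In them COL3A1 stood at 412 CPM and KRT14 at 2665 CPM, against 808 and 2359 CPM in the 582 negative barcodes. Barcodes with 10 or more UMIs of the set, 11 cycling and 362 negative ones, held 76.3% and 89.9% of all its UMIs.

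Without the barcodes that met the set, 430 cycling and 7424 negative barcodes remained, and the fibroblast list median was -0.14. This removal takes out collagen UMIs by its construction, so the values that follow describe the remaining barcodes only. COL3A1 then stood at 5.60 and 7.08 CPM, LUM at 1.87 and 2.45 CPM and PRRX1 at 8.03 and 9.06 CPM. MMP2, a gelatinase, and DCN, a proteoglycan, had log2 ratios of 0.26 in place of -1.10 and 1.21 in place of -1.41. Both then stood under the 10 CPM minimum in each class, at 9.15 and 7.61 CPM for MMP2 and 1.31 and 0.563 CPM for DCN. DCN is itself a gene of the set, of which each remaining barcode held fewer than 2 UMIs, so no reversal is read from these values. Of the 63 genes at least 2-fold lower in all barcodes 37 were also at least 2-fold lower in this restricted set. THY1, a surface glycoprotein of fibroblasts and of some basal epithelial cells, stood apart from the list: it was 129 CPM in cycling and 87.5 CPM in negative barcodes, and 131 and 87.8 CPM without the mesenchymal barcodes.

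Interferon-stimulated genes carried UMIs in cycling and negative barcodes, and most compared genes of the list had a somewhat lower level in cycling ones. Of 44 genes on the list 34 were compared, 1 was at least 2-fold lower and 0 at least 2-fold higher, 25 had a log2 ratio below 0, beside 31.5% of all genes, and the median was -0.27 beside 0.15 over all genes. IFI6, an interferon-induced membrane protein and the most abundant member, stood at 5576 CPM in cycling barcodes and 6804 CPM in negative barcodes, 1.22-fold lower. ISG15, a ubiquitin-like modifier, stood at 295 and 376 CPM, and the GTPases MX1 and MX2 at 194 and 263 CPM and at 62.1 and 127 CPM. MX2 was the gene past 2-fold, at 2.05-fold lower, and it passed 2-fold in 12 of 17 alternative settings, with log2 ratios from -1.18 to -0.92. IFI44L and IFI44 were 1.58-fold and 1.57-fold lower, and RSAD2, the antiviral enzyme viperin, 1.47-fold lower.

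A part of the list stood on the other side. PSMB9, a subunit of the immunoproteasome, stood at 102 CPM in cycling barcodes and 56.0 CPM in negative barcodes, 1.81-fold higher (1.66 to 1.98). PSMB8, its neighbour in the same particle, stood at 186 and 147 CPM, and the peptide transporter TAP1 at 28.7 and 19.3 CPM. B2M, the light chain of MHC class I, was level at 2341 and 2365 CPM. In single barcodes the list summed to a median of 8872 CPM in cycling barcodes (quartiles 6540 and 11945, lowest 2359) and 10607 CPM in negative barcodes (7963 and 14278, lowest 1347). The summed level was above 0 in every barcode of both classes, and the quartile ranges overlapped. IFI6 alone had a median of 4839 CPM in single cycling barcodes and 6006 CPM in negative ones. With B2M it made up most of the sum, so a sum above 0 does not show that the other members carried UMIs in each barcode.

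The day 8 level of the list in cycling barcodes was far above that of the earlier days, as it was in negative barcodes. Over the 35 genes listed in the 3 tables it summed to 1229 CPM at day 0, 1566 CPM at day 4 and 10061 CPM at day 8 in cycling barcodes, and to 1392, 1743 and 11717 CPM in negative barcodes. IFI6 gave the largest part of the day 8 sum. Its median over single cycling barcodes was 0 CPM at day 0, 164 CPM at day 4 and 4839 CPM at day 8. ISG15 stood at 10.3 CPM in cycling and 33.4 CPM in negative barcodes at day 0, 1.47 and 2.98 CPM at day 4, and 295 and 376 CPM at day 8, lower in cycling barcodes at each day.

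Several secreted products stood at lower levels in cycling barcodes, with few of them 2-fold apart. SPP1, osteopontin, which milk contains, stood at 9729 CPM in cycling barcodes and 18158 CPM in negative barcodes, 1.87-fold lower. In single barcodes its median was 6277 CPM in cycling and 12238 CPM in negative barcodes, with quartiles of 3343 to 12937 and 4957 to 24855 CPM. Lactoferrin, LTF, stood at 10.2 and 32.0 CPM, 3.15-fold lower (2.44 to 4.16), the trefoil factor TFF3 at 56.6 and 113 CPM, the mucin MUC13 at 32.5 and 78.1 CPM and AGR2, an endoplasmic reticulum protein of secretory cells, at 45.8 and 75.4 CPM. The secretory list had a median of -0.70, with 2 of 8 compared genes at least 2-fold lower, beside 0.743% of all genes, and the milk secretion list, which shares LTF with it, -0.88, with 1 of 5. The casein CSN3, of the milk secretion list, stood at 9.30 CPM in cycling barcodes, with a log2 ratio of -0.64 over negative barcodes. MUC15, another mucin, was higher, at 16.2 and 9.81 CPM.

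The share of barcodes with at least 2 UMIs of TFF3, AGR2 and LTF was 17.5% in cycling barcodes (14.2 to 21.4) and 18.5% in negative barcodes (17.6 to 19.4). Thinned to 3000 UMIs it was 6.58% (4.48 to 9.26) and 9.04% (8.42 to 9.69), and in BFRTV0d, where 2 of the 3 genes were listed, it was met by 0 of 10670 thinned barcodes, which by the same limit of 3 counts allows a share of up to 0.0281%. The intervals of cycling and negative barcodes overlapped in both settings.

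Other named genes at least 2-fold lower had varied roles. NPPC, the C-type natriuretic peptide, stood at 88.0 CPM in cycling and 257 CPM in negative barcodes, 2.92-fold lower (2.68 to 3.20). PTHLH, the parathyroid hormone-related peptide, stood at 33.9 and 82.0 CPM. GSTM3, a glutathione transferase, stood at 289 and 719 CPM, 2.49-fold lower. CRABP2, which carries retinoic acid to its receptor, stood at 269 and 597 CPM, and its relative CRABP1 at 3.27 and 27.3 CPM. CSTA, a protease inhibitor of stratified epithelium, stood at 54.4 and 119 CPM, CD200, an immune-regulatory membrane protein, at 20.3 and 51.2 CPM, and ADAMTS1, a secreted protease, at 45.8 and 117 CPM. Without the mesenchymal barcodes NPPC, PTHLH, GSTM3, CRABP2, CSTA, CD200 and ADAMTS1 kept log2 ratios between -1.60 and -1.17, whereas CRABP1 had -0.36 in place of -3.06 and MGP, an inhibitor of calcification, -0.69 in place of -1.94. Among genes under 2-fold, the calcium-binding protein S100A8 stood at 2087 CPM in cycling and 4044 CPM in negative barcodes, and involucrin, IVL, of the cornified envelope, at 41.1 and 65.5 CPM.

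Genes of several other lists went both ways, a few of them near or past 2-fold. The ferritin heavy chain FTH1, which stores iron, stood at 15638 CPM in cycling and 22832 CPM in negative barcodes, and GPX2, a glutathione peroxidase, at 619 and 1186 CPM. Of 14 compared glycolysis genes 0 were 2-fold apart and 11 had a log2 ratio below 0, with a median of -0.29. GPI, glucose-6-phosphate isomerase, stood at 132 and 193 CPM and ALDOA, an aldolase, at 537 and 714 CPM. Chaperones of the heat shock list went both ways around a median of -0.01: HSP90B1, of the endoplasmic reticulum, stood at 384 CPM in cycling and 193 CPM in negative barcodes, HSPD1, of mitochondria, at 261 and 169 CPM, and the small heat shock protein HSPB1 at 479 and 732 CPM. SMTN, smoothelin, an actin-binding protein, was the contractile gene past 2-fold, at 55.9 and 25.8 CPM, while the contractile list had a median of -0.03. The orphan receptor NR4A1 was 2.80-fold higher (2.33 to 3.34).

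Markers of several other cell types were low in both classes, and others were not. The summed level was 12.2 CPM in cycling and 15.3 CPM in negative barcodes for the 4 listed endothelial genes of 10, 30.1 and 30.4 CPM for the 6 listed immune genes of 13, 2.75 and 4.47 CPM for the 2 listed erythroid genes of 7, and 42.2 and 63.8 CPM for the 3 listed neuronal genes of 8. Pericyte genes summed to 88.0 and 73.0 CPM. The chondrocyte list summed to 421 CPM in cycling and 429.8 CPM in negative barcodes, nearly all of it SOX9, at 417 and 427 CPM, a transcription factor that stands on the luminal list too. The list of cornifying keratinocytes summed to 2949 and 5025 CPM, with S100A8 as its most abundant member. PECAM1, CDH5, PTPRC and CD3E were not among the genes listed.

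The levels moved with the number of rule UMIs, also inside the class. UBE2C stood at 3.90 CPM in barcodes with 0 UMIs, 7.19 CPM at 1, 24.9 CPM at 2 to 3, 102 CPM at 4 to 5 and 1327 CPM at 20 or more. The S phase gene TYMS stood at 36.2 CPM at 0 UMIs, 93.1 CPM at 4 to 5 and 169.8 CPM at 20 or more. KRT14 stood at 4799 CPM at 0 UMIs, 3909 CPM at 4 to 5 and 2770 CPM at 20 or more, and SPP1 at 18158, 11267 and 9461 CPM. KRT18 ran upward, at 104, 149 and 201 CPM, as did CDH1 at 59.1, 61.8 and 96.6 CPM. IFI6 stood at 6804, 5892 and 5688 CPM, and was lowest at 6 to 9 UMIs, with 5332 CPM. The 4 bins of the cycling class held 92, 120, 128 and 116 barcodes, and their median depth ran from 9628 UMIs at 4 to 5 rule UMIs to 13522 at 20 or more, so depth moved with these levels and its part in them was not tested within the bins.

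**Figure D5:**
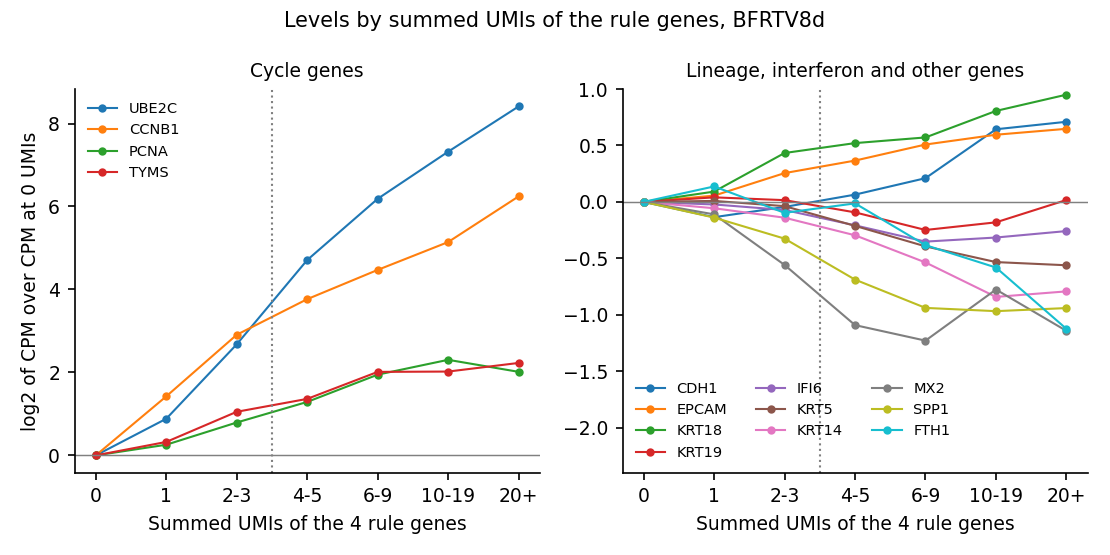
Log2 of the CPM in barcodes of BFRTV8d with a given number of summed UMIs of the 4 rule genes (x axis) over the CPM in barcodes with 0 such UMIs (y axis), for 4 cycle genes (left) and 10 other genes (right); the dotted line marks the rule, and the scales of the panels differ. UBE2C reaches 1327 CPM at 20 or more UMIs against 3.90 CPM at 0. KRT18, EPCAM, CDH1 and, barely, KRT19 end above 0, and KRT5, KRT14, SPP1, MX2 and FTH1 end below -0.5.

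Most genes at least 2-fold higher in cycling barcodes at day 8 were so at day 4 too. Of these 421 genes 326 were at least 2-fold higher at day 4. They are 77.4% of the day 8 genes and 33.2% of the 983 day 4 genes. With day 0 the overlap was 207 genes, 49.2% of the day 8 genes and 72.1% of the 287 day 0 genes. At all 3 days 199 genes were at least 2-fold higher. Over all genes compared, 11.6% stood 2-fold or more above at day 4 and 3.42% at day 0. Of the 421 genes 383 were compared at day 4, where 372 lay above 0, beside 74.3% of all genes. Day 0 had 365 of them compared, of which 348 lay above 0, beside 56.0% of all genes. Of the 63 lower genes 51 were compared at day 4, where 37 were also at least 2-fold lower, and 37 were compared at day 0, where 2 were at least 2-fold lower and 35 lay below 0. In all, 384 genes (4.51% of those compared) were at least 2-fold lower at day 4 and 31 (0.37%) at day 0. The contrast itself was steepest at day 8: the list for G2 and mitosis had medians of 3.33 at day 0, 4.51 at day 4 and 5.51 at day 8, with 34 of 34 compared genes at least 2-fold higher at each day. The level in negative barcodes enters this contrast too, and the limit of the filter given for day 8 may hold for the counts of the other days. The list summed to 486, 241 and 255 CPM in negative barcodes of days 0, 4 and 8, and to 4087, 3593 and 5045 CPM in cycling barcodes.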

How the data were processed

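Per the labels, libraries were made with the 10x Genomics Single Cell 3′ V2 kit, and FastQC 0.10.1 and Cell Ranger stand in the processing notes of the submitters. The genome build, the annotation and the version of Cell Ranger were not given in the sources used here. The authors deposited 5 tables of raw UMI counts per gene and barcode, 1 per group, for 11 samples. The filter on barcodes is not given either. Rows with the same symbol were summed, and 14942 of 15297 symbols of BFRTV8d were found in RefSeq. No mitochondrially encoded gene was listed, so RNA quality could not be read from them.

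Counts were summed over the barcodes of a class and divided by the class total (CPM). Genes with at least 10 CPM in 1 class were compared, the 4 rule genes left out, and a ratio of at least 2 was called. Ratios carry exact conditional binomial 95% intervals and shares exact Clopper-Pearson intervals. Where a sum was 0 it stood at 3 counts. Thinning drew 3000 UMIs per barcode without replacement (seed 1). Depth weighting used 10 bins of equal size. Software was Python 3.11.15 with numpy 2.4.6, scipy 1.17.1, pandas 2.3.3 and scanpy 1.11.5 (Scrublet), and R 4.3.3 with edgeR 4.0.16, used for TMM factors only. The interval code was tested on simulated data. No gene test was run, because each group is 1 pooled table.

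Genes were named by rule: the 12 highest and 12 lowest ratios among genes with a symbol other than a LOC number and at least 50 CPM in 1 class, up to 4 members of each of 32 gene lists with the largest ratio, and 31 marker genes. Other genes named (for example EPCAM, PCNA, TYMS, MCM2, MCM5, CCND2, SMC4, PTTG1, UNG, PERP, B2M, PSMB8 and TAP1) are members of those lists that were chosen after their values were seen. The members of the class and all lists were chosen with earlier results of these data known. Barcode thresholds, the genes of the rule, the comparison class, depth, scaling, the CPM minimum, the fold, deep barcodes, mesenchymal barcodes and averaging were varied.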

Additional observations from a re-analysis of the deposited data

How the results depend on the processing

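Under the alternative settings that gave gene values, 17 of 18, the medians of the junction, luminal and interferon lists kept their direction, from 0.06 to 0.24, from -0.27 to -0.04 and from -0.41 to -0.19. The share of cycling barcodes, 4.49%, was 5.25% at a minimum of 3 UMIs, 3.59% at 6 UMIs, 5.14%, 5.07% and 3.33% with MKI67, CDK1 or CENPF left out of the rule, and 4.05% without deep barcodes. The 421 higher and 63 lower genes were 155 and 23 at a minimum of 50 CPM, 1476 and 510 with no CPM minimum and 197 and 4 at 4-fold. Lower genes numbered 115 after thinning, 97 with TMM factors and 96 with factors from the median of ratios, and both moved the median of all genes by -0.14 and the basal median to -0.13. The fibroblast median was -0.14 without mesenchymal barcodes, -0.40 at 50 CPM and -1.36 with a rule of at least 2 UMIs and 400 CPM. The S phase median was 1.46 at 50 CPM and 2.14 with CENPF left out, and that of G2 and mitosis 5.09 with CENPF left out and 5.04 against barcodes with 0 to 3 UMIs. Of 45 named genes 2-fold apart 43 kept their sign in all 17 settings. By size alone, whatever the direction, 35 stayed 2-fold apart in all 17 settings, DCN among them although its sign changed. Without mesenchymal barcodes MMP2 was at 0.26 and DCN at 1.21, both under 10 CPM in each class. The cause of these shifts was not tested. Leaving out doublets could not be done, since Scrublet marked 0. No paired analysis was possible because the tables carry no sample numbers. The depth of 5809572 UMIs in cycling barcodes limits genes under about 10 CPM, and counting intervals do not hold the spread between cultures.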

Other observations

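Some enzymes of serine synthesis and other genes of amino acid supply were looked up after their ratios had been seen. They were not a list set beforehand, and ASNS and SHMT2 among them were under 2-fold apart. PHGDH, PSAT1 and PSPH, the enzymes of the pathway from 3-phosphoglycerate to serine, stood at 240.1 CPM in cycling and 119 CPM in negative barcodes, at 290.4 and 134 CPM and at 263 and 111 CPM. MTHFD2, a mitochondrial enzyme of one-carbon metabolism, stood at 54.0 and 21.6 CPM, the amino acid transporter SLC7A5 at 276 and 115 CPM, asparagine synthetase, ASNS, at 86.6 and 51.5 CPM, and SHMT2, which splits serine in mitochondria, at 84.3 and 67.6 CPM. The log2 ratios of PHGDH, PSAT1 and PSPH were 0.25, -0.04 and 0.10 at day 0, 0.81, 1.34 and 1.25 at day 4 and 1.02, 1.12 and 1.25 at day 8. Whether the difference between day 0 and the later days goes with the cell types in each table was not tested.

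Several abundant genes of chromatin and microtubules, likewise chosen after their values were seen, carried more UMIs than the mitotic kinases. The chromatin protein HMGB1 stood at 1326 CPM in cycling and 359 CPM in negative barcodes, UBE2S, which extends ubiquitin chains for the APC/C, at 1212 and 159 CPM, and STMN1, which destabilises microtubules, at 646 and 140 CPM. UBE2S stood at 1583 and 739 CPM at day 0 and 758 and 104 CPM at day 4.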
